A study of Arabidopsis thaliana with 18 samples.

Results

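Shoots of Arabidopsis thaliana treated with caesium were compared with shoots starved of potassium, gene by gene, on Affymetrix ATH1 arrays, which read each transcript with a set of short probes (a probe set). The 3 arrays titled as caesium-treated shoots and the 3 titled as potassium-starved shoots were taken, 6 of the 18 arrays of the series. The 3 control shoots entered the model as a further group that helps to estimate the spread, and their signals are given beside those of the treatments. All plants were of the Wassilewskija accession Ws-2 (stock N1601), with no transgene or mutation named in the labels. Controls and treated plants alike were raised to developmental stage 3.90 under a 16 h day, at 22 °C and 80% humidity, on a medium of diluted MS salts set with 0.8% agar and holding 1% sucrose. No source used here gives the caesium dose, the length of either treatment or how potassium was removed, so the comparison sets the treatments side by side as they were applied and not at a matched strength. The labels do not tell whether replicates were separate cultures. If they were not, p-values measure no more than the spread between these arrays, which may be technical. Of 22746 probe sets that are not array controls, 14665 were bright enough to be tested. Whole shoots were sampled, so fewer cells of a type and less RNA per cell cannot be told apart in any value below.

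Potassium is the most abundant cation of plant cells, where it balances charge, drives turgor and activates enzymes, among them those of starch and protein synthesis. Caesium is an alkali metal with no known role in plants. It enters roots through potassium transport systems, competes with potassium there, and is toxic at high levels. Starved shoots are known to remobilise reserves and to switch on stress genes, many of them shared with cold, drought and wounding.

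The shoots of the treatments differed at a large share of genes. Of the 14665 probe sets, 3935 (26.8%) were called between caesium-treated and potassium-starved shoots, that is, they had an adjusted p under 0.05 (limma on log2 signal, Benjamini-Hochberg over all tested probe sets). Signals were higher under caesium at 2638 of them (18.0% of those tested) and lower at 1297 (8.84%). The split depended on how arrays are scaled to each other, because the deposited arrays share a trimmed mean but not a median. The median signal of an array was 45.2, 43.0 and 45.4 in caesium-treated shoots (replicates 1 to 3, in this order throughout), and 39.5, 33.0 and 38.9 in potassium-starved shoots. As deposited, the median log2 difference over all tested probe sets was 0.156, and a shift to a common array median moved every difference by -0.26. Calls were then 1524 higher and 2331 lower, so 39.5% of them were higher in place of 67%. Under quantile normalization the split was 2014 to 1619, or 55.4% higher. A gene is therefore also described as called under all 3 scalings where these scalings and the deposited one called it in the same direction, which held for 1514 higher (10.3%) and 1144 lower (7.80%). Leaving out 1 array lowered the number of calls by more than 1.5 times for 4 arrays, to 1894, 2456 and 2229 without caesium-treated replicate 1, 2 or 3 and to 2295 without potassium-starved replicate 2. With replicate number as a block there were 5478 calls, 3664 higher and 1814 lower. All other counts and p-values come from the fit without this block unless the block is named. Large differences were more evenly split. Under all 3 scalings, 134 probe sets were at least 4-fold higher under caesium and 125 at least 4-fold lower, and 28 and 36 were at least 8-fold apart.

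The tissue label was looked at through marker genes. Signals summed over 8 named shoot markers were 14669 to 18749 under caesium and 14755 to 16938 under starvation, while the annotation named no flower marker to look at. As a measure of root RNA, 182 probe sets with a mean over 200 in control roots and under 20 in control shoots were summed. They reached 2.21 to 3.28% of their control-root level in caesium-treated shoots, 2.96 to 5.17% in potassium-starved shoots and 1.59 to 2.06% in control shoots. The choice of these probe sets by control-shoot signal makes low shares in shoots likely in advance. Summed over 6 named root markers, signals were 299 to 1164 under caesium, 356 to 1097 under starvation and 308 to 1385 in control shoots. In control roots the sums were 2282 to 3408. Of the 182 probe sets 25 were tested in shoots, and 5 were lower under caesium and none was higher, against 8.84% and 18.0% of all. Dim in control shoots by choice, they could pass the brightness filter mainly through treated arrays where they were high. Their count is therefore no evidence of a direction. The 3′ to 5′ signal ratio of the actin controls, a measure of RNA integrity, was 1.27 to 1.71 under caesium and 1.48 to 2.02 under starvation, and for ubiquitin 1.52 to 1.78 and 1.23 to 1.44. For GAPDH the ratios were 1.03 to 1.18 under caesium and 1.01 to 1.3 under starvation. Their part in the results was not tested.

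Gene length ran through the whole comparison. Among 7875 nuclear probe sets of known gene span, genes under 1 kb had a median log2 difference of -0.40 (lower under caesium) and genes over 6 kb one of 0.90. Of the short genes, 0.956% were called higher and 25.2% lower, against 60.4% and 0.347% of the long ones. The median span was 3563.5 bp for genes called higher, 1578.5 bp for genes called lower and 2293 bp for all. Across probe sets, length and difference had a Spearman correlation of 0.535, a description over genes that share the same arrays and probe design. It lay between 0.326 and 0.575 in each of the 9 pairs of 1 caesium-treated and 1 potassium-starved array, while the same comparison in roots gave 0.115. The pairs with potassium-starved replicate 2 had the highest values, 0.551 to 0.575. Those with replicate 1 had 0.326 to 0.350 and those with replicate 3 had 0.452 to 0.498. With the length trend taken out of each array, a step chosen after seeing the data, the calls among these probe sets went from 1216 (15.4%) to 564 higher and from 759 (9.64%) to 605 lower. Of the earlier calls, 478 and 427 remained, and none turned its direction. Length-adjusted counts are therefore given beside the main gene groups, against backgrounds of 7.16% higher and 7.68% lower after adjustment. Against control shoots, the medians from under 1 kb to over 6 kb ran from 0.25 to -0.64 for potassium-starved shoots. For caesium-treated shoots they ran from -0.10 to 0.26. The part of gene length in the results was not tested further.

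**Figure D1:**
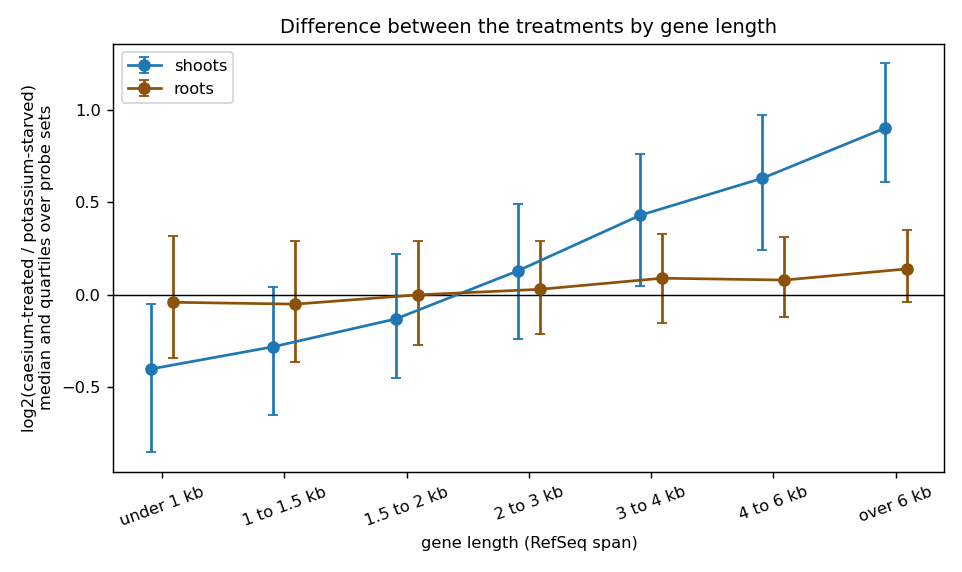
Median log2 difference between caesium-treated and potassium-starved plants (y axis, with quartiles as bars) in 7 classes of gene span (x axis), for shoots and roots. In shoots the medians climb from -0.40 under 1 kb to 0.90 over 6 kb, and in roots they stay between -0.04 and 0.14.

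A fall or rise under caesium is counted here from potassium-starved plants and not from controls. Where an order of the 3 groups is given below, it describes the signals and is no test of caesium against control. The largest falls were in genes whose transcripts were abundant in potassium-starved shoots. For AT4G18280, AT1G58420, SAL2 and AT2G23120, starved shoots were above controls by log2 4.55, 4.16, 4.60 and 2.95. Caesium-treated shoots differed from controls by -0.27, -0.08, 0.62 and -0.20, none of them called. AT4G18280 had signals of 60.5, 46.7 and 50 in caesium-treated shoots, 1886, 1384 and 1222 in potassium-starved shoots, and 76.3, 56.0 and 57.6 in controls. Caesium and starvation did not overlap there, as they did not at 44.5% of all tested probe sets. The log2 difference was -4.82 ± 0.217 (SE; adjusted p = 4.58e-06), or 28.3-fold lower under caesium. AT1G58420 was the next largest fall, with 37.5, 36.0 and 31.9 against 801, 795 and 461, and 36.2, 36.4 and 38.6 in controls. All starved arrays were far above the other 6, and the log2 difference was -4.24 ± 0.223 (adjusted p = 1.12e-05). SAL2, a relative of the phosphatase SAL1 that breaks down a nucleotide stress signal, had 22.7, 38.3 and 22.9 against 618, 324 and 392 (log2 -3.98 ± 0.631, adjusted p = 0.003). AT2G23120 was among the brightest of these genes, with 393, 382 and 261 under caesium and 3619, 2948 and 2573 under starvation (log2 -3.15 ± 0.197, adjusted p = 4.57e-05). All of these calls held when any 1 of the 9 shoot arrays was left out.

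The rest of the 14 largest falls under caesium were COR15A, AMY1 and CML41, described with their groups below, and AT1G16850, AT2G32190, AT3G47380, AT5G52390, AT4G19200, AT1G72240 and AT1G05340, for which the annotation used here gives no name. Their log2 differences lay between -3.57 and -3.01, and each had all 3 caesium-treated arrays below all 3 potassium-starved ones. AT4G19200 had 294, 257 and 282 against 2770, 2806 and 2057. AT5G45630 and AT1G21550 were near background under caesium, with 7.13, 7.04 and 3.57 against 81.2, 179 and 67.6, and 14.0, 20.1 and 16.4 against 201, 327 and 151. They were not tested when a potassium-starved array was left out, because too few arrays then passed the brightness filter.

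Calcium sensors were lower under caesium. Calmodulin-like (CML) proteins bind calcium and pass the signal on, and many of their genes respond to touch, wounding and pathogens. Of 7 tested members of the list, 4 were lower under caesium, all under all 3 scalings, and none was higher, with a list median of -1.63 against 0.156 for all probe sets. CML41 had 37.8, 105 and 86.8 under caesium, 1186, 1299 and 880 under starvation and 29.8, 59.5 and 28.1 in controls. The starved arrays stood apart from the other 6, and the log2 difference was -3.98 ± 0.394 (adjusted p = 0.000443). CML38 had 47.4, 31.2 and 19.0 against 244, 256 and 96.3 (log2 -2.58 ± 0.481, adjusted p = 0.00552). CML37 (log2 -2.01, adjusted p = 0.0347) and CML23 (log2 -1.63, adjusted p = 0.0493) were weaker calls. CML37 lost its call without any 1 caesium-treated array (adjusted p of 0.0625, 0.0921 and 0.0829), and CML23 without 7 of the 9 arrays, with an adjusted p of up to 0.186 without potassium-starved replicate 2. Without that replicate 2 members were called, CML37 being untested there. It passed the brightness filter only through the 3 starved arrays, where it was high, and could hardly be called other than lower. The genes are short, with a median span of 981 bp, and 2 stayed called after adjustment for length.

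Cold and dehydration genes were also lower. Their products are mostly hydrophilic proteins that protect membranes and enzymes when cells lose water, and abscisic acid or cold switches them on. Of 10 tested, 6 were lower under caesium, under all 3 scalings, and none was higher, with a median of -0.91. COR15A, whose product enters the chloroplast stroma, had 257, 38.8 and 251 under caesium and 984, 2531 and 1736 under starvation, with 432, 257 and 597 in controls. The starved arrays were the highest of the 9, and the log2 difference was -3.59 ± 0.658 (adjusted p = 0.00523). The dehydrin gene LTI30 had 46.5, 45.0 and 99.5 against 249, 1029 and 416 (log2 -3.0 ± 0.496, adjusted p = 0.00357). COR47, another dehydrin gene, had 715, 711 and 821 against 2524, 1939 and 1743, with controls at 1366, 937 and 1594. Its groups did not overlap, and the log2 difference was -1.45 ± 0.21 (adjusted p = 0.00224). LEA4-5, of the late embryogenesis abundant proteins, was dim under caesium at 21.9, 4.81 and 13.0 against 71.4, 151 and 53.3 (log2 -2.90 ± 0.655, adjusted p = 0.0114). It passed the brightness filter only through the starved arrays and was not tested without 1 of them. It could therefore hardly be called other than lower. After adjustment for length 5 of the 10 stayed lower, and 5 did so without potassium-starved replicate 2. SRC2, a cold-regulated gene outside the list that was chosen after its values were seen, had 485, 710 and 451 against 2359, 2193 and 1801 (log2 -1.97 ± 0.219, adjusted p = 0.000829).

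Starch and sugar genes separated the treatments only singly. AMY1, an alpha-amylase that cuts starch, had 51.8, 71.6 and 77.9 under caesium, 1197, 577 and 702 under starvation and 34, 26.8 and 27.0 in controls. The 3 groups were separate, in the order control, caesium, starvation, though caesium was not called against control (log2 1.18, adjusted p = 0.0792). The treatments had a log2 difference of -3.57 ± 0.275 (adjusted p = 0.000136). ATSPS4F, a sucrose phosphate synthase gene, went the other way, with 241, 100 and 108 against 32.6, 24.0 and 43.0 (log2 2.09 ± 0.43, adjusted p = 0.00802). Those were the only calls among 7 tested probe sets of starch and sugar metabolism as deposited, and with replicate number as a block 4 were higher and 1 lower. Of 15 sugar transporters, 1 was higher and 2 were lower. TMT1, which loads sugars into the vacuole, had 293, 267 and 239 against 165, 122 and 150 (log2 0.88 ± 0.175, adjusted p = 0.00728). SWEET1, a sugar exporter, had 149, 184 and 178 against 311, 384 and 293 (log2 -0.95 ± 0.223, adjusted p = 0.0134), and without caesium-treated replicate 1 its adjusted p was 0.0541.

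Autophagy and senescence genes were lower or did not pass the test. Of 15 tested, 5 were lower under caesium under all 3 scalings and none was higher, with a median of -0.55. ATG8 proteins coat the membrane that encloses cell material for recycling in the vacuole, and 3 of the 4 calls with the largest differences were ATG8 genes. ATG8D had 191, 167 and 207 against 428, 586 and 367, with controls at 158, 168 and 169. The starved arrays were the highest of the 9, and the log2 difference was -1.27 ± 0.199 (adjusted p = 0.00287). SAG29, a senescence gene that encodes the sugar exporter SWEET15, had 47.8, 20 and 159 against 278, 449 and 253, and 9.91, 6.80 and 5.64 in controls. Here caesium-treated shoots lay between control and starved shoots, though caesium was not called against control (log2 2.88, adjusted p = 0.0595). The treatments had a log2 difference of -2.56 ± 0.596 (adjusted p = 0.0129, and 0.0554 without potassium-starved replicate 2). APG8A (log2 -0.88 ± 0.288, adjusted p = 0.0445) was called in 1 of 9 fits with an array left out, with an adjusted p of up to 0.144 without caesium-treated replicate 1. Without potassium-starved replicate 2 the list had 2 calls, and 3 members stayed lower after adjustment for length.

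Genes of oxidative stress and alternative respiration were called in both directions. Of 15 tested, 6 were lower and 2 higher under caesium (5 and 1 under all 3 scalings). Methionine sulfoxide reductases repair oxidised methionine in proteins. MSRB9 had 91.6, 157 and 119 under caesium, 991, 1256 and 498 under starvation and 69.3, 124 and 46.3 in controls. Caesium-treated and control shoots overlapped while the starved shoots stood above both (log2 -2.84 ± 0.406, adjusted p = 0.00217). MSRB3 was also lower, at 91.4, 104 and 95.5 against 223, 296 and 141 (log2 -1.12 ± 0.244, adjusted p = 0.0102). NDB genes encode alternative NAD(P)H dehydrogenases of the mitochondrial inner membrane, which pass electrons into respiration without pumping protons. NDB2 had 157, 162 and 236 against 596, 389 and 384, with controls at 87.4, 76.6 and 68.5. Its 3 groups were separate from each other, in the order control, caesium, starvation, though caesium was not called against control (log2 1.24, adjusted p = 0.0502). The treatments differed by -1.30 ± 0.236 (adjusted p = 0.00503). NDB1 ran opposite, with 100, 75.6 and 83.7 against 36.2, 26.3 and 51.3 (log2 1.23 ± 0.251, adjusted p = 0.00775). Without potassium-starved replicate 2, 3 members were lower and 1 higher. After adjustment for length 4 were lower and 1 higher.

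**Figure D2:**
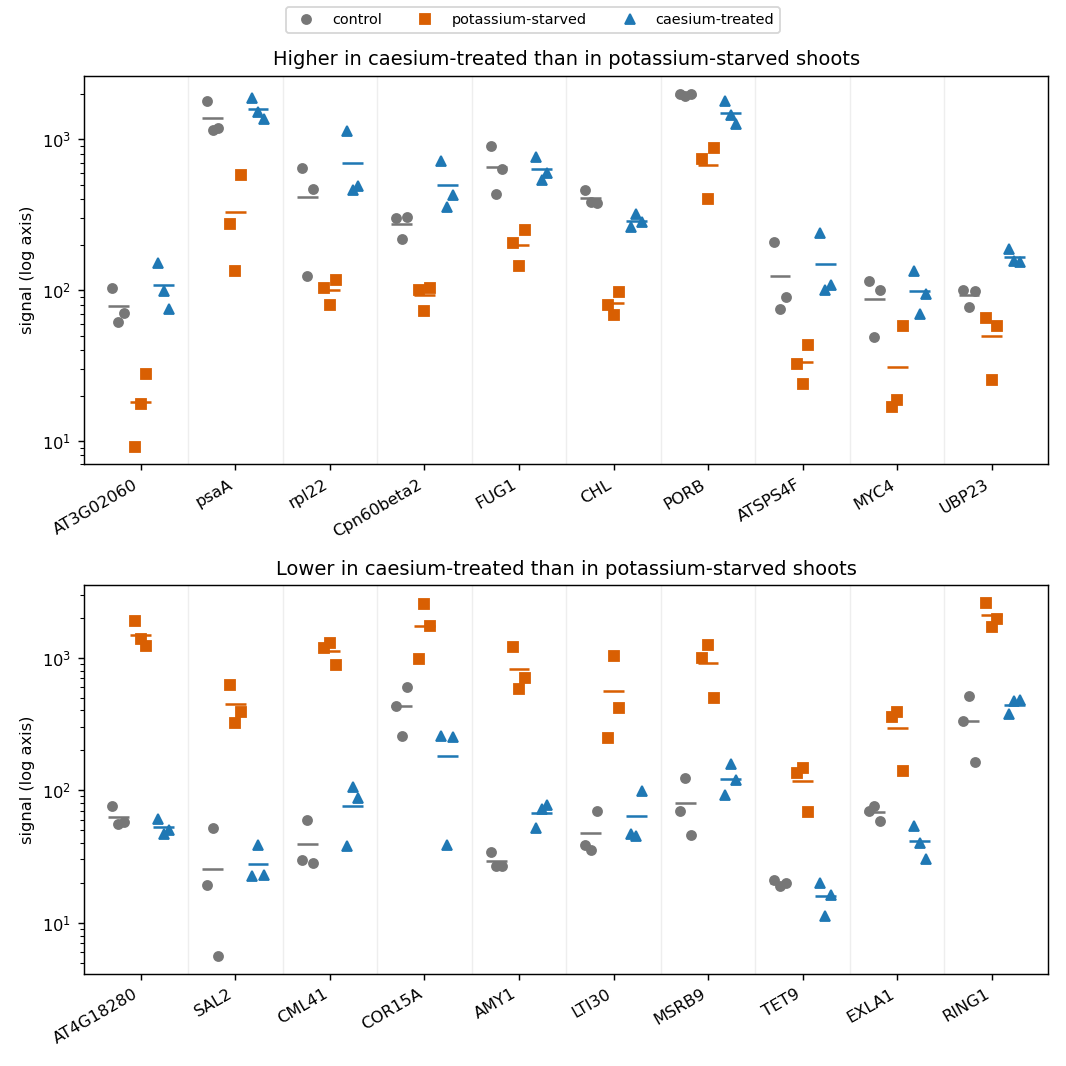
Signal on each of the 9 shoot arrays (log y axis) for 10 genes higher and 10 lower in caesium-treated than in potassium-starved shoots, with lines at the group means. In each gene the 3 caesium-treated arrays lie on one side of the 3 potassium-starved arrays, as for CML41 at 37.8 to 105 against 880 to 1299.

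Cell wall genes were called in both directions, at shares near those of all probe sets (18.0% higher and 8.84% lower). Of 41 tested, 7 were higher and 5 lower under caesium (5 and 5 under all 3 scalings), with a median of 0.18. EXLA1, an expansin-like protein, had 54.1, 40.2 and 30.2 against 356, 388 and 139, with controls at 70.0, 75.7 and 58.1 (log2 -2.73 ± 0.366, adjusted p = 0.00179). XTH19, which cuts and rejoins xyloglucan chains, had 48.9, 22.1 and 33.4 against 118, 149 and 226 (log2 -2.26 ± 0.332, adjusted p = 0.00229). Neither gene's groups overlapped. Among the higher members were cellulose synthase-like genes, whose enzymes make wall polysaccharides in the Golgi. CSLA03 had 78.6, 66.0 and 72.3 against 19.1, 37.1 and 33.7 (log2 1.32 ± 0.277, adjusted p = 0.00864). CSLC5 had 137, 103 and 122 against 63.0, 51.6 and 69.6 (log2 0.98 ± 0.213, adjusted p = 0.0102), and TBL25, of a family of wall acetylation genes, had 229, 306 and 285 against 114, 99.4 and 161 (log2 1.15 ± 0.214, adjusted p = 0.00547). With replicate number as a block 13 members were higher and 6 lower. After adjustment for length 2 stayed higher and 5 lower. With 1 array left out 2 to 5 were lower, and without potassium-starved replicate 2 there were 3. EXPA16, 1 of the 5 lower members, passed the brightness filter only through the starved arrays. EXO, a growth gene named EXORDIUM and chosen after its values were seen, had 130, 109 and 54.1 against 425, 455 and 161 (log2 -1.78 ± 0.439, adjusted p = 0.0159, and 0.0645 without potassium-starved replicate 2 and 0.0563 without caesium-treated replicate 3).

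RALF peptides and their receptors parted. RALFs are small secreted peptides that raise the pH of the wall and slow growth, and FERONIA (FER) and THESEUS1 (THE1) are receptor kinases that watch the wall. Of 8 tested members of this list, 3 peptide genes were lower under caesium and 2 receptor genes higher, all 5 under all 3 scalings. RALFL22 had 150, 142 and 150 against 316, 473 and 305 (log2 -1.28 ± 0.229, adjusted p = 0.00479), and FER had 401, 493 and 452 against 221, 148 and 284 (log2 1.09 ± 0.228, adjusted p = 0.00864). In FER the control shoots, at 446, 438 and 490, lay among the caesium-treated ones. Gene length differs between these members, the list's median span being 1209 bp and that of FER 3366 bp, and after adjustment for length 1 member was higher and none lower. RALFL22 has no span in the annotation and was not among the adjusted genes. Without potassium-starved replicate 2 there were 2 lower and 1 higher.

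Of 8 genes of defensins and salicylate defence 1 was lower under caesium and none higher, and none held under all 3 scalings. With replicate number as a block 1 was higher and 3 were lower. Of 9 tetraspanins, which span membranes as organisers of protein patches, 2 were lower. TET9 had 20, 11.3 and 16.1 against 135, 146 and 68.8, with 21.0, 18.9 and 19.8 in controls (log2 -2.85 ± 0.326, adjusted p = 0.000941). It passed the brightness filter only through the starved arrays and could hardly be called other than lower. It was not tested when a starved array was left out, so that without potassium-starved replicate 2 no tetraspanin was called. TET8 was a weaker call (log2 -0.73 ± 0.233, adjusted p = 0.0414, up to 0.121 with an array left out, without potassium-starved replicate 2). RING1, a ubiquitin ligase gene chosen after its values were seen, had 374, 473 and 481 against 2586, 1706 and 1972 (log2 -2.22 ± 0.347, adjusted p = 0.00285). CHI, a chitinase gene also chosen afterwards, had 475, 554 and 745 against 2761, 2028 and 1631 (log2 -1.85 ± 0.484, adjusted p = 0.0203). It lost its call without caesium-treated replicate 1 or 2 or potassium-starved replicate 1 or 2 (adjusted p of 0.0516 to 0.0691). CCR2, cinnamoyl-CoA reductase of the lignin pathway, was the 1 call among 7 phenylpropanoid genes, at 2.64, 2.92 and 8.26 against 39.4, 37.4 and 34.2. It too passed the brightness filter only through the starved arrays, so its direction is no evidence about the list. Signals near 3 are in the noise of the array, and the log2 difference of -3.21 ± 0.807 (adjusted p = 0.0171) is no measure of how little transcript was there.

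Plastid-encoded genes were more often higher than lower under caesium. The plastid chromosome carries genes for photosynthesis and for the plastid's own ribosomes and RNA polymerase, transcribed largely in strings of neighbours. Of 68 tested, 22 were higher under caesium and 1 was lower (14 and 1 under all 3 scalings), with a median of 0.47 and of 0.20 on the common-median scale. Over all probe sets 18.0% were higher and 8.84% lower (10.3% and 7.80% under all 3 scalings). All 3 starved arrays of psaA, a core protein of photosystem I, were below the other 6, at 275, 134 and 582 against 1873, 1529 and 1369 under caesium and 1800, 1155 and 1188 in controls. Its log2 difference was 2.51 ± 0.425 (adjusted p = 0.00392). The ribosomal protein gene rpl22 had 1141, 459 and 489 under caesium, 103, 80.3 and 116 under starvation and 642, 125 and 470 in controls. The treatments did not overlap (log2 2.69 ± 0.543, adjusted p = 0.0077), although replicate 1 was the highest of its group under caesium and in controls alike.

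Some of the calls were neighbours on the plastid chromosome, and some others were parted from them only by a gene that rose but was not called. Between atpH and rps2 lay atpI (log2 1.54, adjusted p = 0.0889), and between rps2 and rpoC1 lay rpoC2 (2.12, adjusted p = 0.0646). Between rpoA and rpl14 lay rpl36 (2.08, adjusted p = 0.063). The ribosomal protein genes rpl14, rpl16, rps3, rpl22 and rps19 are 5 neighbours among the tested genes, and all were higher, by 2.66, 2.24, 2.09, 2.69 and 1.78. The ATP synthase genes atpA, atpF and atpH are 3 more, higher by 1.46, 1.81 and 0.94, the last not under all 3 scalings. Counted by called genes alone, these runs together hold 8 of the 22. By function, 7 of 15 ribosomal protein genes were higher, 2 of 3 RNA polymerase genes, 4 of 10 genes of the NDH complex, which cycles electrons around photosystem I, 3 of 6 of the ATP synthase and 3 of 7 of photosystem I and its assembly. Photosystem II genes were higher at 2 of 15, near the 18.0% of all probe sets, and cytochrome b6f genes at 0 of 6. The medians of these 2 groups were 0.03 and 0.11. The 1 gene lower under caesium was petN of the cytochrome complex, at 161, 138 and 155 against 251, 273 and 203 (log2 -0.67 ± 0.196, adjusted p = 0.0304, and up to 0.0967 with an array left out, without caesium-treated replicate 2). Without potassium-starved replicate 2 the list had 11 higher and none lower, and with replicate number as a block 31 and 1. In roots 57 plastid genes were tested and none was called, with a median of 0.04.

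**Figure D3:**
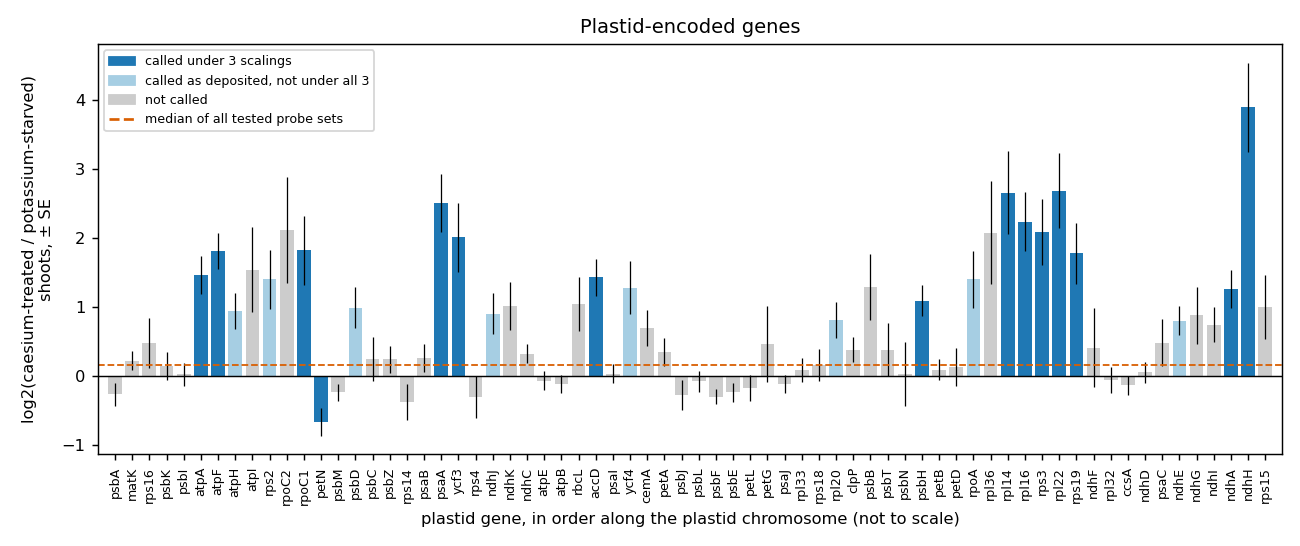
Log2 difference between caesium-treated and potassium-starved shoots, ± SE, for the 68 tested plastid-encoded genes in their order along the chromosome, coloured by whether each was called. The neighbours rpl14 to rps19 stand at 1.78 to 2.69, above the median of all tested probe sets (dashed, 0.156), while the 15 photosystem II genes have a median of 0.03.

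Nuclear genes for plastid proteins stood out by single genes rather than as groups. Cpn60beta2, a chaperonin subunit that folds proteins in the plastid, had 724, 354 and 428 under caesium, 101, 73.1 and 103 under starvation and 302, 220 and 306 in controls. Its 3 groups were separate, in the order starvation, control, caesium, though caesium was not called against control (log2 0.81, adjusted p = 0.201). The treatments differed by 2.39 ± 0.276 (adjusted p = 0.000941). Its relative Cpn60beta3, chosen after its values were seen, had 70.3, 71.9 and 73.3 against 5.80, 22.4 and 25 (log2 2.28 ± 0.532, adjusted p = 0.013, and 0.0645 after adjustment for length). FUG1, a translation initiation factor of plastids, had 766, 541 and 597 against 206, 144 and 249 (log2 1.69 ± 0.287, adjusted p = 0.00397). CHL, the plastid lipocalin, which guards thylakoids from light damage, had 264, 319 and 282 against 79.3, 68.8 and 97.2, with controls above both at 459, 387 and 378 (log2 1.83 ± 0.186, adjusted p = 0.000494). These last genes were also chosen after their values were seen. AT5G55580, one of the largest differences, was higher by 2.51 ± 0.644 (adjusted p = 0.0187), on 90.9, 37.3 and 53.7 against 6.5, 4.82 and 31.6. It lost its call without caesium-treated replicate 1 or potassium-starved replicate 1 or 2 (adjusted p of 0.0728, 0.0554 and 0.0727).

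The small counts of this paragraph stand against 18.0% higher and 8.84% lower over all probe sets. Of 7 nuclear genes for NDH subunits and assembly factors 2 were higher (1 under all 3 scalings) and none was lower. CRR22, a factor that edits ndh transcripts, had 50.7, 37.3 and 32.5 against 8.78, 13.1 and 17.8 (log2 1.64 ± 0.336, adjusted p = 0.00793). Of 5 organelle transcript processing factors 2 were higher, OTP81 (log2 1.91 ± 0.488, adjusted p = 0.0182, and 0.0793 without caesium-treated replicate 1) and PPR336 (log2 0.92 ± 0.18, adjusted p = 0.00658). Light-harvesting and photosystem genes of the nucleus hardly parted, with 1 of 8 higher and 1 lower. LHCB4.3, an antenna protein of photosystem II, had 317, 206 and 300 against 135, 76.2 and 170 (log2 1.16 ± 0.293, adjusted p = 0.0174, lost without caesium-treated replicates 1 and 3 at 0.0651 and 0.0593). In chlorophyll synthesis 2 of 8 were higher and none lower, and after adjustment for length 3 were higher and 1 lower. PORB, which reduces protochlorophyllide in the light, had 1787, 1452 and 1275 against 743, 404 and 882, with controls at 2014, 1942 and 2000. All starved arrays were below all caesium-treated ones and those below all controls, though caesium was not called against control (log2 -0.41, adjusted p = 0.519). The treatments differed by 1.21 ± 0.255 (adjusted p = 0.00883, and 0.0127 after adjustment for length). With replicate number as a block 4 of the 8 were higher.

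Calmodulin-binding IQ-domain (IQD) proteins, scaffolds linked to microtubules and membranes, had the highest share of calls among the lists with 5 or more tested genes. Of 7 tested, 6 were higher under caesium and none lower, but 2 of the 6 held under all 3 scalings, and with the length trend taken out 2 were higher and 1 lower. Their median span is 3613 bp. IQD28 had 60.5, 42.3 and 88.3 against 16.8, 19.1 and 30.1, with controls at 63.3, 74.1 and 67.8 (log2 1.52 ± 0.299, adjusted p = 0.00688, and 0.0513 after adjustment for length). Leaving out 1 array left 2 to 5 members called, 3 without potassium-starved replicate 2. A like pattern held for TON1 recruiting motif (TRM) proteins, which guide microtubule arrays. Of 7 tested 4 were higher and none lower, 2 under all 3 scalings, and none was called with the length trend taken out, at a median span of 4207 bp. With 1 array left out 1 to 4 were higher, and without potassium-starved replicate 2 there were 3. Of 7 tubulins 1 was higher, TUB5, with 456, 423 and 368 against 186, 218 and 255 (log2 0.93 ± 0.176, adjusted p = 0.00593), and 5 were with replicate number as a block.

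RNA polymerase subunits were called in both directions. Of 9 tested, 3 large subunits were higher and 2 small ones lower under caesium, all under all 3 scalings. NRPA1, the largest subunit of the polymerase that makes ribosomal RNA, had 88.7, 77.8 and 56.0 against 29.6, 21.2 and 24.2, with controls at 33.1, 32.2 and 37.7. Caesium-treated shoots were above the other 2 groups, and the log2 difference was 1.56 ± 0.234 (adjusted p = 0.0025). NRPA2 (log2 1.05 ± 0.197, adjusted p = 0.00574) and NRPC2 (log2 1.06 ± 0.193, adjusted p = 0.00504) were also higher, and NRPB12 (log2 -0.80 ± 0.251, adjusted p = 0.0394) and NRPB9B (log2 -0.61 ± 0.178, adjusted p = 0.03) lower. The first 3 genes span 9705, 7818 and 11049 bp and the last 2 span 1406 and 1898 bp. With the length trend taken out NRPA1 alone stayed called (log2 0.72, adjusted p = 0.0442). Both small subunits lost their calls without potassium-starved replicate 2 (adjusted p of 0.121 and 0.0645).

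Enzymes that attach and remove ubiquitin were called in opposite directions. Ubiquitin-specific proteases (UBPs) remove ubiquitin from proteins, and ubiquitin-conjugating enzymes (UBCs) attach it. Of 24 tested, 5 were higher and 5 lower (4 and 4 under all 3 scalings), against 18.0% and 8.84% of all probe sets. Of the 12 proteases 5 were higher and 0 lower, and of the 12 conjugating enzymes 0 were higher and 5 lower, a tally made after the values were seen and not tested. UBP23 had 188, 157 and 154 against 65.1, 25.5 and 57.6, with controls at 101, 77.5 and 98.8, the 3 groups being separate (log2 1.86 ± 0.313, adjusted p = 0.00382). Among the conjugating enzymes PEX4, which serves peroxisome import, had 273, 255 and 275 against 420, 775 and 446 (log2 -0.97 ± 0.226, adjusted p = 0.0128). With the length trend taken out 1 was higher and 2 lower, and without potassium-starved replicate 2 the counts were 4 and 2.

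Transport and metabolism gave few calls, the shares over all probe sets being 18.0% higher and 8.84% lower. None of the named potassium and cation carriers was called: of 6 in the annotation 1 was bright enough to be tested, CHX16, a cation/proton exchanger, at 55.0, 33.4 and 20 against 30.9, 3.78 and 34.7. Those signals overlap, with a log2 difference of 1.06 ± 0.811 (adjusted p = 0.356). Other transporters and channels of potassium were not analysed here. GLR3.3, a glutamate receptor-like channel that carries wound signals, was the 1 call among 6 such channels, with 70.9, 86.1 and 88.9 against 43.1, 27.4 and 44.7 (log2 1.12 ± 0.226, adjusted p = 0.00762). Carriers of nitrate and other nutrients gave 2 higher and 1 lower of 11 tested, near the shares over all probe sets. The lower one, AT1G68570, had 380, 178 and 477 against 1251, 621 and 1181 (log2 -1.61 ± 0.419, adjusted p = 0.0197). It lost its call without potassium-starved replicate 1 or 3 or caesium-treated replicate 2 (adjusted p of 0.0592, 0.0504 and 0.0596).

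Enzymes that attach sugars to small molecules, the UDP-glycosyltransferases, were higher at 4 of 28 and lower at none, a share under the background of 18.0%. UGT74D1 had 142, 83.3 and 139 against 60.2, 46.0 and 51.1 (log2 1.18 ± 0.272, adjusted p = 0.0125, and 0.0516 without caesium-treated replicate 1). Of the 4, 1 held under all 3 scalings. With 1 array left out 1 to 6 were higher, and with replicate number as a block 11. Of 12 cytochromes P450, 2 were higher and none lower, near the same background of 18.0%. CYP71B34 had 109, 109 and 72.1 against 30.2, 37.6 and 39.5 (log2 1.42 ± 0.272, adjusted p = 0.00623, and 0.00968 after adjustment for length), and with the block 4 were. MCCB, a subunit of the mitochondrial carboxylase that degrades leucine, had 231, 182 and 191 against 83.5, 83.1 and 106 (log2 1.15 ± 0.249, adjusted p = 0.00978). Its partner MCCA was higher by 1.24 ± 0.353 (adjusted p = 0.0274, and 0.0605 to 0.0905 without caesium-treated replicates 1 or 2 or potassium-starved replicates 1 or 2).

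Transcription factors were called on both sides. MYC3 and MYC4, which drive jasmonate responses together with MYC2, were 2 of 5 jasmonate genes tested and the only ones called, both higher. With replicate number as a block 2 of the 5 were higher and 1 was lower. MYC3 had 130, 137 and 123 against 45.6, 73.0 and 83.5 (log2 1.00 ± 0.221, adjusted p = 0.0107). MYC4 had 133, 69.2 and 93.9 against 16.7, 18.7 and 57.9 (log2 1.86 ± 0.479, adjusted p = 0.0188, and up to 0.0746 with an array left out, without potassium-starved replicate 2). Among 6 WRKY factors, which act in defence and senescence, ZAP1 (WRKY1) was higher at 105, 79.0 and 93.0 against 38.4, 16.1 and 45.9 (log2 1.59 ± 0.366, adjusted p = 0.0124). WRKY47 was lower at 67.1, 60.3 and 50.2 against 152, 107 and 111 (log2 -1.05 ± 0.222, adjusted p = 0.00897). BZIP61 was higher under caesium, at 44.4, 31.5 and 17.5 against 3.57, 4.53 and 17.0, yet controls were above both at 123, 113 and 126 (log2 2.16 ± 0.539, adjusted p = 0.0167). It lost its call without caesium-treated replicate 1 or potassium-starved replicate 2 (adjusted p of 0.0667 and 0.0638). IAA29, a repressor in auxin signalling, had 66.3, 41.0 and 53.8 against 26.9, 22.7 and 32.7, with controls again above both at 210, 126 and 140. The treatments differed by 0.96 ± 0.256 (adjusted p = 0.0217), and the adjusted p was 0.0832, 0.0709 and 0.062 without caesium-treated replicate 1, potassium-starved replicate 2 and caesium-treated replicate 3.

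**Figure D4:**
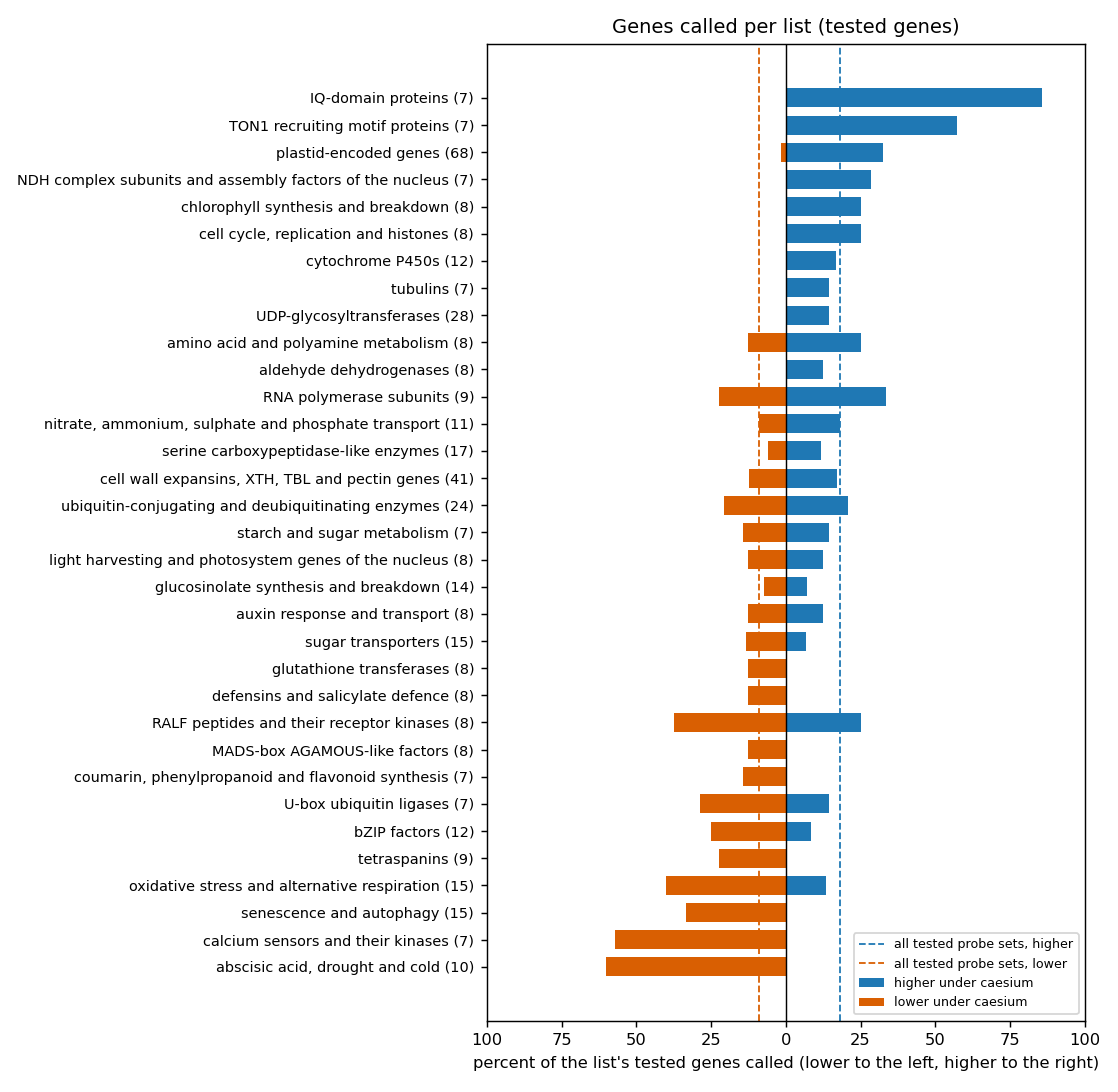
Percent of each list's tested genes called higher (right) or lower (left) under caesium, for the 33 lists with 7 or more tested genes, with the number tested in brackets. Dashed lines mark the shares over all tested probe sets, 18.0% higher and 8.84% lower. Calcium sensors (4 of 7 lower) and cold and dehydration genes (6 of 10 lower) lie at the lower end and IQ-domain proteins (6 of 7 higher) at the upper end.

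The 14 largest rises among genes whose starved arrays were not all below the 40th percentile were, besides plastid genes and Cpn60beta2, mostly genes without a name in the annotation. Several had 1 or more starved signals under 10, in the noise of the array, so the sizes of their differences are uncertain. AT3G02060 had 151, 98.5 and 74.9 against 9.16, 17.5 and 27.7, with controls at 104, 61.1 and 70.7 (log2 2.66 ± 0.398, adjusted p = 0.00248). AT3G59040 was the tightest, with 148, 98.9 and 101 against 20.5, 21.9 and 23.5 (log2 2.38 ± 0.228, adjusted p = 0.000356). RBL, which resembles a subunit of the complexes that methylate histone H3, had 81.7, 61.7 and 66.0 against 7.95, 5.39 and 33.3 (log2 2.62 ± 0.561, adjusted p = 0.00945). The largest of the 14, AT5G59670, was also the least precise, at 225, 67.3 and 100 against 22.4, 0.815 and 27.6 (log2 3.85 ± 1.12, adjusted p = 0.03). It lost its call without caesium-treated replicate 1 (adjusted p = 0.101) or 3 (0.0666). Larger rises were fitted where all starved signals were in the noise. AT1G31920 had 60.9, 38.7 and 55.5 against 2.04, 1.35 and 6.46, with controls at 81.4, 32.8 and 59.4 (log2 4.28 ± 0.574, adjusted p = 0.00179). NET1B, an actin-binding protein, had 63.8, 47.7 and 37.8 against 2.22, 1.86 and 5.00, the starved signals being in the noise (log2 4.15 ± 0.707, adjusted p = 0.00397).

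The same comparison in roots, on arrays that share no sample with the shoots, gave far fewer calls, 655 of 14432 (4.54%), 328 higher and 327 lower (2.27% each). Leaving out 1 root array gave 126 to 702 calls, the lowest without potassium-starved root replicate 2. Both tissues were tested at 12828 probe sets. Of these, 95 were higher in both, which is 4.09% of the shoot calls and 33.1% of the root calls, and 48 were lower in both, 4.09% and 17.9%. Another 27 were called in opposite directions. The difference between the tissues itself, tested as an interaction over all 18 arrays, was called at 1598 of 16397 probe sets (9.75%), with 4.17% of them relatively higher in roots and 5.58% relatively lower. Of the 120 genes named for the shoots that could be tested in roots, 44 differed between tissues and 16 were called in roots, a description, since the shoot values chose them.

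Of the 14 largest falls in shoots 11 were tested in roots and none was called there, with root differences between -0.59 and 0.27. Of the 14 largest rises 7 were tested in roots and 2 were called, with root differences between 0.04 and 1.45. CML41 had 39.6, 40.7 and 36.0 in caesium-treated roots and 45.0, 35.1 and 41.3 in potassium-starved roots, which overlap, and the tissues differed by 3.92 ± 0.477 (adjusted p = 0.000278). AT4G18280 and AT1G58420 differed between the tissues by 4.29 and 4.38 (adjusted p = 1.14e-06 for each). XTH19 turned its direction, with 170, 200 and 155 against 79.5, 40.8 and 49.5 in roots, a rise of 1.68 ± 0.244 (adjusted p = 0.00722) where shoots had a fall. AT2G16660 was higher in shoots, at 534, 870 and 542 against 123, 122 and 127, and lower in roots, at 114, 102 and 83.3 against 225, 181 and 224 (log2 2.35 and -1.08, adjusted p = 0.00146 and 0.0157). AT3G12900 separated the treatments in roots alone, at 53.6, 58.7 and 49.5 under caesium and 948, 940 and 1007 under starvation (log2 -4.16 ± 0.196, adjusted p = 4.14e-06). In shoots it was at 18.6, 30.8 and 20.6 against 29.8, 23.7 and 29.5, which overlap (log2 -0.27 ± 0.354, adjusted p = 0.596), and the tissues differed by -3.89 (adjusted p = 4.73e-05).

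A few genes moved the same way in both tissues. Cpn60beta2 was higher in roots at 237, 114 and 107 against 77.9, 40.5 and 45.4 (log2 1.45 ± 0.339, adjusted p = 0.0386), and the tissues did not differ past the threshold (adjusted p = 0.207). NRPC2 was higher at 63.3, 49.8 and 51.9 against 25.4, 20.2 and 24.2 (log2 1.24 ± 0.191, adjusted p = 0.00904). BCAT4, which starts glucosinolate synthesis from methionine, was lower in roots, at 849, 894 and 597 against 2100, 2011 and 1762 (log2 -1.35 ± 0.179, adjusted p = 0.00451), and in shoots, at 445, 705 and 1038 against 1266, 1057 and 1711 (log2 -0.94 ± 0.311, adjusted p = 0.0467). The shoot call did not hold under all 3 scalings and was kept in 2 of 9 fits with an array left out, with an adjusted p of up to 0.161 without caesium-treated replicate 1. SRC2 was lower in roots as well (log2 -0.87, adjusted p = 0.0094), by less than in shoots (difference 1.10 ± 0.253, adjusted p = 0.0149).

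**Figure D5:**
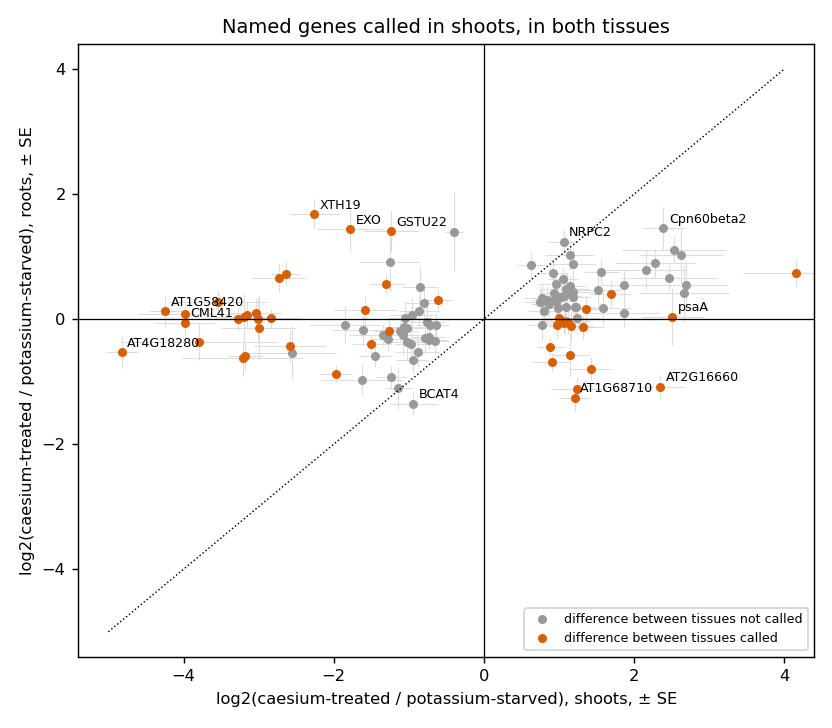
Log2 difference between caesium-treated and potassium-starved plants in shoots (x axis) and roots (y axis), ± SE, for the 120 named genes called in shoots and tested in roots, coloured by the test of the difference between tissues, which 44 passed. Genes far from 0 in shoots, such as AT4G18280 at -4.82 and CML41 at -3.98, lie near 0 in roots, while XTH19 lies above it at 1.68.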

How the data were processed

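RNA of shoots and roots was read on 18 ATH1 arrays in 6 groups of 3. The authors deposited 1 intensity per probe set and array, a linear signal from MAS5 per the submitters' processing notes, with equal trimmed means (99.2 to 99.5) on all arrays. Array precision is limited by 3 arrays a group. Array control probe sets (64 of 22810) were left out. By the platform annotation 13513 probe sets had 1 gene, 503 had several and 8730 had none, and 13436 matched the RefSeq gene table used for symbols and gene spans.

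The log2 of the signal was used, without a pseudocount. Testing needed at least 3 of a tissue's 9 arrays above the 40th percentile of their array. A gene that passed only through the starved arrays could hardly be called other than lower under caesium. Differences were fitted with limma 3.58.1 in R 4.3.3 (lmFit, eBayes with a mean-variance trend) over the 9 shoot arrays, with p-values adjusted by Benjamini-Hochberg over all tested probe sets and called under 0.05. Roots were fitted likewise, and the difference between tissues over all 18 arrays. The procedure was tested on simulated data.

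In shoots, same-numbered caesium-treated and potassium-starved arrays deviated together from their group means (correlations of 0.203, 0.376 and 0.258). For differently numbered arrays the correlations were -0.28 to 0.0787. The labels' replicate numbers were therefore taken to pair them, but the main fit has no block. Its counts, standard errors and p-values leave this pairing out. The fit with replicate number as a block is given for the totals and for several lists whose counts it moved by over 1.5 times. It also called 1 cold and dehydration gene and 1 phenylpropanoid gene higher. Among IQ-domain proteins, nuclear NDH genes and the channels listed with GLR3.3 it called 1 each lower. Without the block these lists had no call in that direction.

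Genes were named by a rule: the 14 largest differences a direction among genes without overlap that were called under all 3 scalings and whose lower group was not wholly below the 40th percentile, the 3 largest below it, up to 4 calls a direction for each gene list, and the 4 smallest interaction p-values of each sign. The members, the 36 gene lists and 17 more added later were chosen with earlier results of these data known. Alternatives were other scalings, filters, pseudocounts and spread estimates, array weights, fewer or more arrays, and each array left out. Adjustment for gene length (20 bins) was chosen after seeing the data. A planned search of promoters for motifs was not run.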

Additional observations from a re-analysis of the deposited data

Results flagged for a closer look

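The genes below were singled out because the difference between caesium-treated and potassium-starved plants was not the same in roots as in shoots, by a test of that difference itself (limma interaction over all 18 arrays, Benjamini-Hochberg over 16397 probe sets). Each value is the root difference minus the shoot difference on the log2 scale. A positive value means that the gene was relatively higher under caesium in roots than in shoots. The genes were chosen by their values in shoots or by this same test, so their number is no result. Of the 59 genes, 33 had positive and 26 negative values, and 13 were too dim in roots for a test there. Their values include root signals near the floor of the array and are uncertain in size, as for CYP71B5, whose shoot difference was 1.31.

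Stress and signalling genes that were lower under caesium in shoots had positive values. They were CML41 (3.92), CML38 (2.15), LTI30 (2.86), LEA4-5 (4.13), MSRB9 (2.84), NDB2 (1.86), SRC2 (1.10), ATG8D (1.08), RING1 (2.11) and TET9 (2.78). Among enzymes and cell wall genes the values were SAL2 (4.06), AMY1 (3.53), CCR2 (2.59), GSTU22 (2.65), EXLA1 (3.38), XTH19 (3.94) and EXO (3.23). Regulators and smaller differences were bZIP44 (1.72), NRPB9B (0.91) and FIS1B (1.10). The unnamed loci with positive values were AT4G18280 (4.29), AT1G58420 (4.38), AT2G32190 (3.81), AT3G47380 (3.27), AT5G52390 (3.23), AT4G19200 (2.59), AT2G23120 (3.22), AT1G72240 (3.13), AT1G05340 (3.00), AT5G45630 (4.21), AT2G42350 (3.43), AT1G21550 (4.05) and AT1G55210 (3.36).

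Genes that were higher under caesium in shoots had negative values, including the plastid genes psaA (-2.47) and ndhH (-4.08). For nuclear genes of plastids and chlorophyll the values were FUG1 (-1.29), LHCB4.3 (-1.27) and HEME1 (-1.13). Enzymes and carriers among them were CYP71B5 (-4.60), CYP71B34 (-2.21), GT72B1 (-1.59), MCCA (-2.35), MCCB (-1.73), BGLU44 (-1.05), CSLA03 (-1.45) and TMT1 (-1.32). Regulators, receptors and the actin-binding NET1B were NET1B (-3.42), IAA29 (-1.79), PUB49 (-1.20), GLR3.3 (-1.16) and MYC3 (-0.98). The unnamed loci with negative values were AT5G15780 (-5.06), AT1G68600 (-4.09), AT3G59040 (-2.30), AT1G31920 (-4.84), AT3G12900 (-3.89), AT2G16660 (-3.43), AT1G68710 (-2.47) and AT3G11930 (-1.82). In AT3G12900 the difference lay in roots, and in AT3G11930 the shoots did not pass the test.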

How the results depend on the processing

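Of the 146 genes named and called in shoots that could be followed, none turned its direction under any alternative. All 146 kept their call with replicate block and with log2(signal + 16), 131 with a shift to a common array median, 130 with quantile normalization and 132 with no filter. Without caesium-treated replicate 1, 2 or 3, 93, 107 and 103 of the 146 kept it, and without potassium-starved replicate 2, 97 of 137. Of all 149 named genes called in shoots, 77 were tested and called in all 9 such fits. The shift moved the calls in shoots to 1524 higher and 2331 lower. With the gene length trend taken out, 87 of 140 kept their call, and the calls were 1169, of them 564 higher, against 1975 (1216 higher and 759 lower) for the same probe sets unadjusted. The fall to 1975 itself comes from testing fewer probe sets. Leaving out 1 array in turn gave 1894 to 3869 calls in shoots, 1228 to 2607 higher and 666 to 1262 lower, 126 to 702 calls in roots and 736 to 2127 between tissues. Array weights gave 2548 calls in roots and 2485 between tissues, and the replicate block 1574 and 2434. In roots, the deviations of same-numbered caesium-treated and potassium-starved arrays had correlations of 0.246, 0.0795 and 0.156. For differently numbered root arrays the correlations were -0.218 to 0.111. Whether replicate numbers pair the root samples was not tested. For the changed counts the cause was not tested. The replicate block changed no other call of a named gene. Signals near the floor of an array, as for NET1B and CCR2, limit how large a difference can be read.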
